A study of Mus musculus with 9 samples.

Results

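The genes of sterol and fatty acid synthesis were followed in bone-marrow-derived macrophages, the phagocytes that grow out of mouse marrow in culture. The 36 genes were taken by symbol from the 56775 genes listed for each library: 19 enzymes of cholesterol synthesis, 5 regulators and carriers of sterol, and 12 genes of fatty acid synthesis and remodelling. All 36 passed the filter on low values, and each entered the test in all 9 libraries.

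The study grew marrow cells from C57BL/6 mice, wild type (WT) or lacking MKP5 (MKP5-/-), for 7 days with 15% L-929 supernatant, a source of macrophage growth factor. MKP5, encoded by Dusp10, is a phosphatase that switches off stress-activated MAP kinases. The 3 groups of 3 libraries were WT macrophages with no treatment (WT 0 h), WT macrophages given oxidized low-density lipoprotein (ox-LDL) at 20 µg/mL for 24 h (WT 24 h), and MKP5-/- macrophages given the same ox-LDL dose for 24 h (MKP5-/- 24 h). WT macrophages kept for 24 h without ox-LDL, and MKP5-/- macrophages at 0 h, were not analysed here. The comparison of WT 24 h with WT 0 h therefore joins ox-LDL with 24 h more in culture, which cannot be told apart, and the comparison of genotypes holds only for cells that had received ox-LDL. The labels name no animal, age or culture for a library, so the p-values measure the spread between these libraries, which may be technical.

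Total reads ran from 11139794 to 19875806 per library, and the 3 MKP5-/- 24 h libraries were the shallowest, with 11139794 to 14376051. Dusp10 stood at 0.741, 0.82 and 0.791 RPKM (reads per exon length and library size, the latter scaled by trimmed mean of M values) in WT 0 h, at 0.7, 0.581 and 0.59 in WT 24 h, and at 0.108, 0.138 and 0.0895 in MKP5-/- 24 h. The MKP5-/- 24 h libraries lay below all others, with a log2 fold change of -2.50 ± 0.26 (SE) against WT 24 h and adjusted p = 9.13e-05 (limma, Benjamini-Hochberg adjustment over all tested genes, as for every adjusted p that follows). The 10 macrophage markers checked, Adgre1, Csf1r and Cd68 among them, were all detected. Their summed level was 4164 to 4272 RPKM in WT 0 h, 9904 to 11571 in WT 24 h and 6384 to 7283 in MKP5-/- 24 h. Lyz2 alone had means of 2298, 8277 and 4375 RPKM in these groups, and the sums cover opposite changes. From WT 0 h to WT 24 h, 7 markers rose and 3 fell (Cd14, Cd68 and Fcgr1), beside 27.4% and 28.1% of tested genes. Between genotypes at 24 h, Cd14, Cd68 and Fcgr1 were called higher and Csf1r, Lyz2 and Mertk lower, beside 11.8% and 16.9%. On principal component 3 of all tested genes, MKP5-/- 24 h replicate 1 lay at 33 and the other two MKP5-/- 24 h libraries at -18.6 and -28.3.

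Cells make cholesterol from acetyl-CoA through mevalonate, isoprenoid diphosphates, squalene and lanosterol, and make fatty acids from acetyl-CoA through malonyl-CoA. Many genes of both routes are targets of the membrane-bound transcription factors SREBP2, encoded by Srebf2, and SREBP1, encoded by Srebf1. Scap escorts the SREBPs out of the endoplasmic reticulum when sterol is scarce, and Insig proteins hold them back when sterol is plentiful. Macrophages take up oxidized lipoprotein through scavenger receptors and store its cholesterol as ester, as in the foam cells of the arterial wall.

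Promoter windows of 300 bases, from 250 before to 50 after the start of transcription in RefSeq (build GRCm38.p6), matched 29 of the 36 genes. Fdps, Fdft1, Sqle, Stard4, Scd1, Scd2 and Fads1 had no window in the table. NF-Y and Sp1 are general factors known to act beside SREBP at such promoters. The NF-Y box CCAAT, searched on both strands, was found in 15 of 16 sterol enzymes, 3 of 4 regulators and 6 of 9 fatty acid genes with a window. It was found in 43.2% of the 10447 tested genes with a window and in 37.4% of all 32851 windows. The Sp1 box GGGCGG, searched on both strands, was found in 14 of 16 sterol enzymes, 4 of 4 regulators and 5 of 9 fatty acid genes, against 67.7% of the tested genes and 35.7% of all windows. The sterol regulatory element core TCACNCCAC, searched on both strands, was found in Hmgcs1 and in none of the other 28 genes, against 1.36% of the tested genes and 1.24% of all windows. None of the 3 motifs contains another, and a match is a string of letters, not a measured site.

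The 250 bases before the start of transcription are shown for 5 genes that differ in how they moved. Hmgcs1 holds the sterol element, Hsd17b7 and Insig1 fell strongly at 24 h, Ebp did not pass the test, and Scap rose. The stretches are chr13:119690101-119690350 (plus strand) for Hmgcs1, chr1:169969206-169969455 (minus strand) for Hsd17b7, chr5:28071162-28071411 (plus strand) for Insig1, chrX:8193513-8193762 (minus strand) for Ebp and chr9:110333038-110333287 (plus strand) for Scap, all in GRCm38.p6. Capitals mark the sterol element and the NF-Y boxes, read as CCAAT or as its reverse ATTGG.
Hmgcs1: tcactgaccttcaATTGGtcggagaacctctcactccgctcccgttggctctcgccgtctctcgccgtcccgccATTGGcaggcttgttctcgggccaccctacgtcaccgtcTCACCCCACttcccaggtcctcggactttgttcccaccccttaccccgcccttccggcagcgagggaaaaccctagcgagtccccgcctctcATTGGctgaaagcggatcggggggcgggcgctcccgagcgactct
Hsd17b7: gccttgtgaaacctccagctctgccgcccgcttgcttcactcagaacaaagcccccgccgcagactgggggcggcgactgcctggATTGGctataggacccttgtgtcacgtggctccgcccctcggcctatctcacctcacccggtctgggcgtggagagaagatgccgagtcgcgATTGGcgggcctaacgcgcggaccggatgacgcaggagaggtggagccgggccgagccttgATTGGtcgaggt
Insig1: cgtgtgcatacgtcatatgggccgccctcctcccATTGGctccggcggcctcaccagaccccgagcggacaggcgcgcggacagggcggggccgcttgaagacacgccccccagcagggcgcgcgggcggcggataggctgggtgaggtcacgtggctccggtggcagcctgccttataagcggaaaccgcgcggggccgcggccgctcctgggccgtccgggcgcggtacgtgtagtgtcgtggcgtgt
Ebp: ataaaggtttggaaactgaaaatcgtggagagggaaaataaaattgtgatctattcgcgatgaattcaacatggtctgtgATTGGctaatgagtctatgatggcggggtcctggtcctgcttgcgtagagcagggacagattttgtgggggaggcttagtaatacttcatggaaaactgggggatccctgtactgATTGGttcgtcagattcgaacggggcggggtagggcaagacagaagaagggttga
Scap: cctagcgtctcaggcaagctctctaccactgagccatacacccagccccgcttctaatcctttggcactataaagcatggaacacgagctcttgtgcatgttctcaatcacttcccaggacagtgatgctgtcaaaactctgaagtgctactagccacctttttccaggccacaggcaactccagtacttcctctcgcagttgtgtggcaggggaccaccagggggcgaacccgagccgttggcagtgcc
The sterol element of Hmgcs1 reads TCACCCCAC and begins 137 bases before the start, 34 bases from the nearest NF-Y box. Hsd17b7 shows 3 NF-Y boxes and Insig1 shows 1, and neither holds these letters of the sterol element. Ebp shows 2 NF-Y boxes and Scap shows none. The windows of Acat2, Acaca, Elovl6 and Fads2, not printed here, held no NF-Y box either. These genes fell from WT 0 h to WT 24 h, at log2 fold changes of -2.41, -1.22, -1.88 and -2.77. A link between the boxes and the changes was not tested.

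In resting WT macrophages the fatty acid genes were the more abundant of the 2 arms per length. The 12 fatty acid genes summed to 426, 444 and 434 RPKM in WT 0 h, and the 19 sterol enzymes to 272, 302 and 272. Scd2, a stearoyl-CoA desaturase that makes oleic acid, was the highest of the 36 at 141 ± 3.82 RPKM (SD, n = 3). Insig1 followed at 77.0 ± 4.43, then Acly, the citrate lyase that supplies cytosolic acetyl-CoA, at 54.2 ± 0.797, Fads2, a front-end desaturase of polyunsaturated fatty acids, at 49.0 ± 1.91, and Srebf2 at 47.1 ± 1.85. The ranges of Scd2, Insig1, Acly and Fads2 did not overlap between neighbours in this order, whereas those of Fads2 and Srebf2 did. Among the sterol enzymes, Hmgcs1 (cytosolic HMG-CoA synthase) at 30.7 ± 2.3 RPKM and Cyp51 (lanosterol demethylase) at 28.5 ± 2.29 led, and their ranges overlapped. The lowest was Tm7sf2, a sterol reductase, at 3.09 ± 0.358 RPKM, still above 85.5% of all listed genes.

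**Figure D1:**
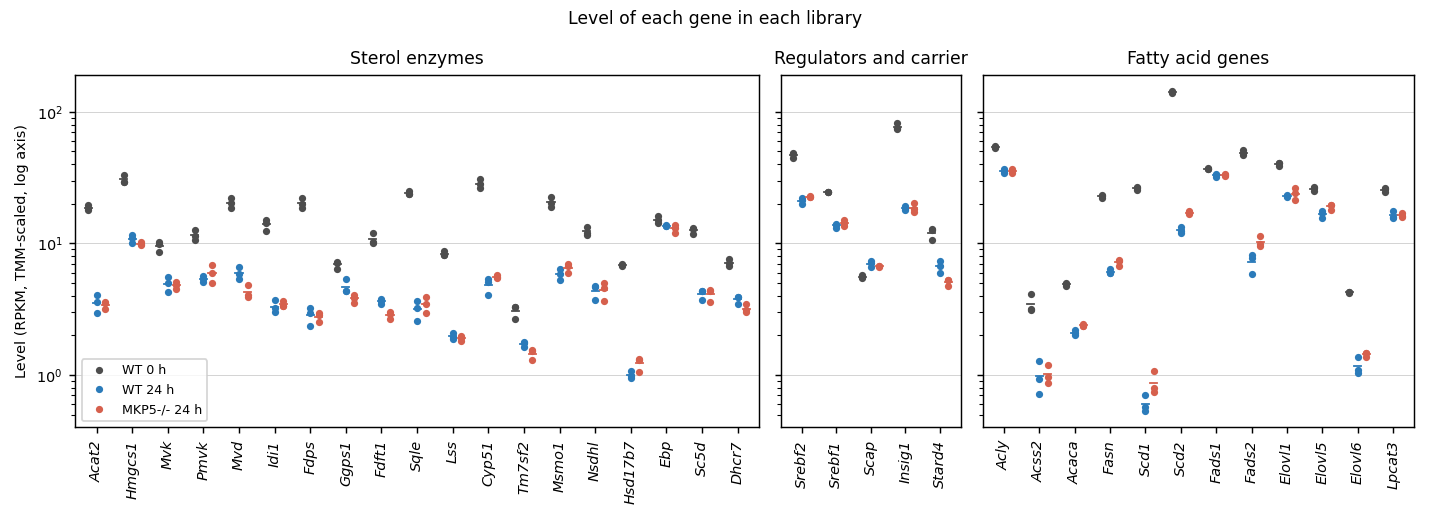
Level of each of the 36 genes in each library, in RPKM on a log axis. Points are the 3 libraries of WT 0 h (grey), WT 24 h (blue) and MKP5-/- 24 h (red), and short bars are group means. The grey points stand above the blue and red ones for every gene except Scap, while blue and red points lie close together.

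Between WT 0 h and WT 24 h the sterol enzymes fell almost without exception. Of all 36 genes 35 were called in either direction, against 55.6% of tested genes. Of the 19 enzymes, 18 were lower with adjusted p below 0.05, against 28.1% of all 14730 tested genes lower at that threshold, and 14 were at least 2-fold lower, against 7.97% of tested genes. The median log2 fold change of the 19 was -1.60, or 3.03-fold lower, beside 0.00 for all tested genes. In all 19 the 3 WT 24 h libraries lay below the 3 WT 0 h libraries, which held downward for 32.4% of tested genes. The exception to the test was Ebp, the sterol isomerase, at 15.0, 16.3 and 14.3 RPKM in WT 0 h and 13.6, 13.5 and 13.9 in WT 24 h, with a log2 fold change of -0.15 ± 0.07 and adjusted p = 0.0799.

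The 8 genes of the mevalonate and isoprenoid steps, upstream of squalene, all fell. Acat2, the cytosolic thiolase that joins acetyl-CoA units at the start of the route, read 18.6, 19.7 and 17.8 RPKM in WT 0 h and 4.05, 3.58 and 2.97 in WT 24 h. Fdps, which makes farnesyl diphosphate, read 18.6, 22 and 20.0 RPKM in WT 0 h and 2.95, 2.34 and 3.22 in WT 24 h. For both genes the highest WT 24 h library stayed far below the lowest WT 0 h library. On the log2 scale the change was -2.41 ± 0.11 (adjusted p = 1.42e-08) for Acat2 and -2.84 ± 0.12 (adjusted p = 1.03e-08) for Fdps. The others in this stretch were Idi1 (isopentenyl diphosphate isomerase) at -2.08, Mvd (mevalonate diphosphate decarboxylase) at -1.78, Hmgcs1 at -1.50, Pmvk (phosphomevalonate kinase) at -1.10 and Mvk (mevalonate kinase) at -0.96. Ggps1, which diverts farnesyl diphosphate to geranylgeranyl diphosphate and away from sterol, fell least in this stretch, by 0.57 on the log2 scale with adjusted p = 0.000549.

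Of the 11 enzymes from squalene to cholesterol, 10 fell. Cyp51 read 26.4, 31.0 and 28.1 RPKM in WT 0 h and 5.35, 4.06 and 5.09 in WT 24 h. Lss, lanosterol synthase, which closes the sterol rings, read 8.20, 8.83 and 8.13 RPKM in WT 0 h and 1.89, 2.07 and 1.94 in WT 24 h. Neither gene's groups overlapped, and the replicates of each group lay close together. The log2 fold change was -2.57 ± 0.10 (adjusted p = 6.08e-09) for Cyp51 and -2.09 ± 0.09 (adjusted p = 1.03e-08) for Lss.

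Other large falls in this stretch were those of Sqle (squalene epoxidase, a rate-controlling oxygenase) at -2.95 ± 0.13 and Hsd17b7 (the ketoreductase of sterol demethylation) at -2.79 ± 0.12. Msmo1 (methylsterol oxidase) stood at -1.82, Sc5d (a sterol desaturase) at -1.60, Fdft1 (squalene synthase) at -1.56 and Nsdhl (a decarboxylating sterol dehydrogenase) at -1.50. Dhcr7, the last reductase on 1 route to cholesterol, at -0.92, and Tm7sf2 at -0.84 fell by less than 2-fold. The summed level of the 19 enzymes was 91.5, 87.7 and 89.7 RPKM in WT 24 h, 31.8% of the WT 0 h mean. The mevalonate and isoprenoid steps came to 31.4% of their WT 0 h mean and the squalene-to-cholesterol steps to 32.1%.

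**Figure D2:**
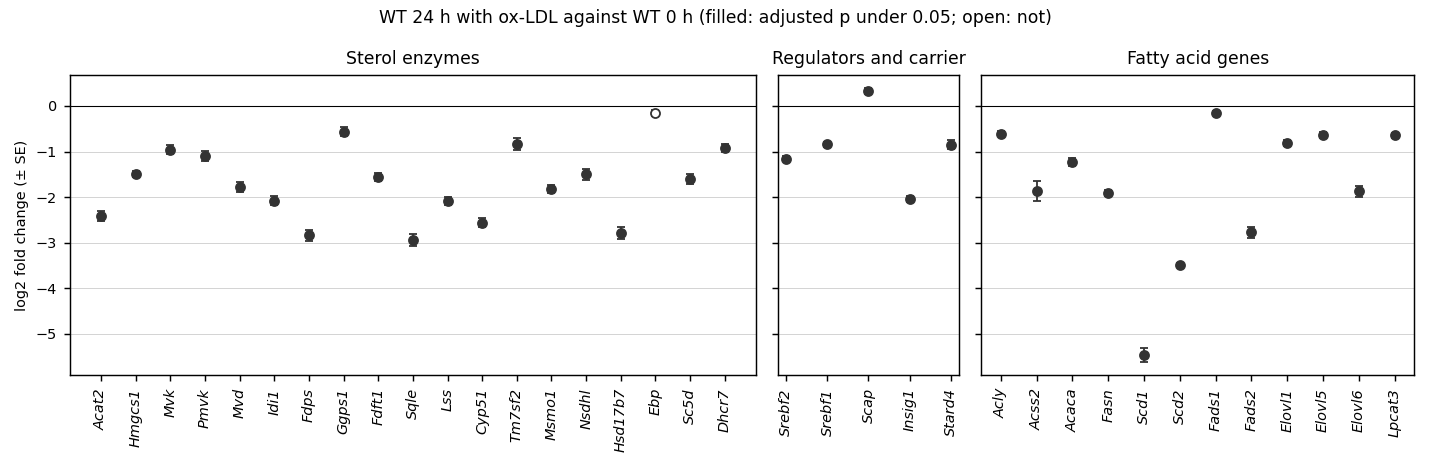
Log2 fold change of each gene in WT 24 h against WT 0 h (y axis, log2 scale), with bars for ± 1 SE from the fit over all 9 libraries. Filled points passed adjusted p below 0.05 and the open point, Ebp, did not; Scd1 lies lowest at -5.46 and Scap alone lies above 0, at 0.32.

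Of the 5 regulators and carriers, 4 fell and Scap rose, against 28.1% of tested genes lower and 27.4% higher. Insig1, the sterol-sensing retention protein, read 73.7, 82.0 and 75.4 RPKM in WT 0 h and 18.1, 18.5 and 19.4 in WT 24 h. Srebf2 read 44.9, 48.0 and 48.3 RPKM and then 22.3, 21.2 and 19.8. Srebf1 read 24.4, 24.8 and 24.6 RPKM and then 14.1, 13.9 and 13.2. In all 3 genes the WT 24 h libraries lay below every WT 0 h library, by the widest margin in Insig1. Log2 fold changes were -2.04 ± 0.07 for Insig1 (adjusted p = 2.63e-09), -1.16 ± 0.06 for Srebf2 (adjusted p = 2.31e-08) and -0.84 ± 0.06 for Srebf1 (adjusted p = 2.93e-07).

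Stard4, a soluble carrier of cholesterol between membranes, read 12.7, 12.8 and 10.7 RPKM in WT 0 h and 7.37, 6.73 and 6.01 in WT 24 h. Scap, the SREBP escort, read 5.52, 5.48 and 5.75 RPKM in WT 0 h and 6.61, 7.32 and 7.05 in WT 24 h. Stard4 was lower in every WT 24 h library and Scap higher in every one, a non-overlap upward that 31.7% of tested genes showed, with log2 fold changes of -0.85 ± 0.10 (adjusted p = 1.7e-05) and 0.32 ± 0.07 (adjusted p = 0.00143). The ratio of Insig1 to Scap within a library went from 13.3, 15.0 and 13.1 in WT 0 h to 2.74, 2.52 and 2.75 in WT 24 h.

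All 12 fatty acid genes fell, against 28.1% of tested genes, and 7 fell at least 2-fold, against 7.97%. Their median log2 fold change was -1.54, beside 0.00 for all tested genes. Scd2 read 138, 145 and 141 RPKM in WT 0 h and 12.4, 13.3 and 12 in WT 24 h. Its paralog Scd1 read 26.7, 26.6 and 25.6 RPKM and then 0.705, 0.568 and 0.53. Scd1 was the lowest of the 36 genes in every WT 24 h library, while Scd2 stayed well above it. The log2 fold change was -3.49 ± 0.05 for Scd2 (adjusted p = 1.88e-11) and -5.46 ± 0.15 for Scd1 (adjusted p = 7.69e-10), a 44.1-fold fall that only 0.231% of tested genes exceeded. The ratio of Scd2 to Scd1 rose from 5.16, 5.46 and 5.50 to 17.6, 23.5 and 22.7. The 2 genes are close in sequence, and how the authors' counting treated reads matching both is not given in the sources used here.

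Fasn, the fatty acid synthase, read 23.1, 22.3 and 23.4 RPKM in WT 0 h and 6.34, 6.01 and 5.97 in WT 24 h. Fads2 read 47.3, 51.1 and 48.7 RPKM and then 8.24, 7.71 and 5.81. All WT 24 h libraries lay below all WT 0 h libraries in both genes, and WT 24 h replicate 3 was the lowest for Fads2. The fitted changes were -1.91 ± 0.06 for Fasn (adjusted p = 2.49e-09) and -2.77 ± 0.12 for Fads2 (adjusted p = 1.36e-08).

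The neighbouring desaturase gene Fads1, which acts after Fads2 in the same chain, read 36.6, 36.6 and 37.2 RPKM in WT 0 h and 31.9, 33.3 and 33.6 in WT 24 h. Its groups did not overlap, yet its fall was the smallest of the arm, -0.16 ± 0.04 with adjusted p = 0.00941. The ratio of Fads1 to Fads2 went from 0.773, 0.717 and 0.763 in WT 0 h to 3.88, 4.32 and 5.78 in WT 24 h, so the order of the pair turned.

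Among the suppliers of acetyl-CoA, Acss2, the acetate-activating enzyme, fell by 1.86 ± 0.22 on the log2 scale and Acly by 0.60 ± 0.05. Acaca, the carboxylase that makes malonyl-CoA, fell by 1.22 ± 0.09. Elovl6, which lengthens palmitate, fell by 1.88 ± 0.13, against -0.81 ± 0.07 for Elovl1 (very long chains) and -0.64 ± 0.06 for Elovl5 (polyunsaturated chains). Lpcat3, which places polyunsaturated chains in phospholipid, stood at -0.65 ± 0.06. The 12 genes summed to 156, 160 and 150 RPKM in WT 24 h, 35.6% of the WT 0 h mean. In WT 24 h the order of levels had changed, with Acly first at 35.6 ± 1.14 RPKM, Fads1 next at 33.0 ± 0.916 and then Elovl1 at 22.9 ± 0.393, no neighbouring ranges overlapping. Scd2 had moved from rank 1 to rank 10, and Scd1 was last.

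**Figure D3:**
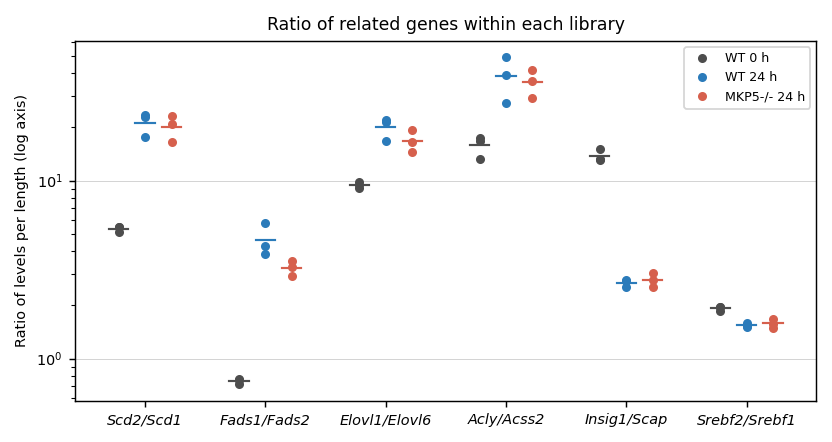
Ratio of the levels of related genes within each library, on a log axis, with points for the 3 libraries of WT 0 h (grey), WT 24 h (blue) and MKP5-/- 24 h (red) and short bars for means. Scd2/Scd1, Fads1/Fads2, Elovl1/Elovl6 and Acly/Acss2 are higher at 24 h than at 0 h in every library, and Insig1/Scap and Srebf2/Srebf1 lower.

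The lists of other pathway genes moved less evenly over the same interval, read against 28.1% of all tested genes lower and 27.4% higher. Of 15 other sterol and SREBP machinery genes, 6 fell and 3 rose, with a median of 0.01, and the 9 called lie near the 55.6% called over all tested genes. Tmem97, a sterol-responsive membrane protein, fell by 1.66 ± 0.11 and Erg28, known in yeast as a scaffold of sterol demethylation, by 0.91 ± 0.11. The genes that rose were Rnf145 (0.70), Mbtps1, the protease that makes the first cut in SREBP (0.45), and Marchf6 (0.30); Rnf145 and Marchf6 encode ubiquitin ligases that act on sterol synthesis. Of 13 genes of the isoprenoid branches, 7 fell and 1 rose, with a median of -0.20, and the 8 called again lie near 55.6%. Coq2 and Pdss1, which serve ubiquinone synthesis, fell by 1.28 ± 0.08 and 1.63 ± 0.26, and Fnta, the shared subunit of the prenyltransferases, rose by 0.72 ± 0.06.

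Of 28 other genes of fatty acid synthesis and activation, 22 were tested, 13 fell and 1 rose, with a median of -0.52, beside 55.6% of tested genes called and 28.1% lower. Hsd17b12 (the reductase of chain elongation) at -1.09 ± 0.08, Slc25a1 (the mitochondrial citrate carrier) at -1.04 ± 0.06 and Mid1ip1 (an activator of acetyl-CoA carboxylase) at -0.63 ± 0.04 were among those that fell. The gene that rose was Hacd4, a dehydratase of the elongation family, from 17.5, 18.5 and 17.1 RPKM to 37.7, 41.0 and 45.4. Its groups were far apart, at a log2 fold change of 1.22 ± 0.08 with adjusted p = 2.86e-07.

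Markers of other cells moved with time as well, to be read beside 28.1% of tested genes lower and 27.4% higher. The 11 markers of neutrophils, cells of the same marrow, summed to 127 to 138 RPKM in WT 0 h, 23.3 to 24.9 in WT 24 h and 15.8 to 17.2 in MKP5-/- 24 h. Of the 10 tested between WT 0 h and WT 24 h, 8 fell and 2 rose, and Camp, Elane and Retnlg were at 0 in every WT 24 h library. The 11 stromal fibroblast markers summed to 2.55 to 3.4 RPKM in WT 0 h, 22.8 to 28.7 in WT 24 h and 4.16 to 9.66 in MKP5-/- 24 h. Of the 9 tested, 7 rose from WT 0 h to WT 24 h, among them Col1a1 and Col3a1, and none was at 0 throughout a group. The 8 adipocyte markers summed to 3.81 to 6.37 RPKM over the 9 libraries, with Cfd, Cidec and Lep at 0 in all of them. Only 1 of the 8, Lipe, passed the filter, and it rose from WT 0 h to WT 24 h by 0.54 on the log2 scale. The 12 cell-cycle genes summed to 424 to 434 RPKM in WT 0 h, 315 to 426 in WT 24 h, where replicate 3 was the lowest, and 343 to 378 in MKP5-/- 24 h. These sums cover opposite changes, since from WT 0 h to WT 24 h the mitotic genes Mki67, Top2a, Cdk1, Ccnb1, Ccnb2, Ccna2 and Birc5 rose, at log2 fold changes of 0.47 to 1.30. The replication genes Mcm2, Mcm3, Mcm5, Mcm6 and Pcna fell, at -1.90 to -1.01. The part of these cells or states in the changes of the 36 genes was not tested, and in bulk RNA fewer cells of a type and less RNA per cell cannot be told apart.

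Between genotypes at 24 h, 9 of the 36 genes were called in either direction, against 28.8% of tested genes. Of the 12 fatty acid genes, 5 were higher in MKP5-/- 24 h than in WT 24 h and none was lower, against 11.8% of tested genes higher and 16.9% lower. Of the 19 sterol enzymes, 3 were lower and none higher. The 3 lower lie near the 16.9% of tested genes lower, and the 9 of 36 called lie near 28.8%. No gene of the 36 differed by 2-fold, as 1.74% of tested genes did downward and 3.83% upward. The median log2 fold change was 0.19 for the fatty acid genes and -0.03 for the sterol enzymes, beside -0.05 for all tested genes. The difference between the arms was not itself tested, and the balance depended on scaling: with upper-quartile factors 7 fatty acid genes were higher, and of the sterol enzymes 2 were higher (Cyp51 and Hsd17b7) and 1 was lower (Mvd). The same factors turned the split of all calls from 1741 higher and 2494 lower to 2490 higher and 1600 lower, and relative log expression factors gave 2106 and 2000.

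Scd2 read 17.6, 16.6 and 17.3 RPKM in MKP5-/- 24 h, above its 12 to 13.3 in WT 24 h. Scd1 read 1.07, 0.799 and 0.749 RPKM, against at most 0.705 in WT 24 h. All MKP5-/- 24 h libraries exceeded all WT 24 h libraries in both desaturases, as they did in 18.6% of tested genes. Both desaturases stayed far below their WT 0 h levels. Fitted log2 changes were 0.45 ± 0.05 for Scd2 (adjusted p = 0.000206) and 0.53 ± 0.15 for Scd1 (adjusted p = 0.025). Scd1 rested on about 58 to 71 reads in each of the 6 libraries, as computed from its annotated length, and 4 of the 17 alternatives left it above the threshold, the highest adjusted p being 0.141.

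Fads2 read 11.4, 9.57 and 9.95 RPKM in MKP5-/- 24 h, against 5.81 to 8.24 in WT 24 h. Fasn read 7.53, 6.73 and 7.40 RPKM, against 5.97 to 6.34. Elovl5 read 18.1, 19.6 and 19.6 RPKM, against 15.5 to 17.5. In all 3 genes the genotypes did not overlap, with the widest relative gap in Fads2. Log2 fold changes were 0.52 ± 0.12 for Fads2 (adjusted p = 0.00856), 0.24 ± 0.06 for Fasn (adjusted p = 0.0168) and 0.20 ± 0.06 for Elovl5 (adjusted p = 0.0365). The Elovl5 call was lost in 8 of 17 alternatives. Acaca also did not overlap, at 2.36, 2.34 and 2.45 RPKM against 2.00 to 2.21, but its log2 fold change of 0.19 ± 0.09 had adjusted p = 0.14. Elovl6 stood at 0.31 ± 0.13 with adjusted p = 0.095. Over the arm of 12, 6 genes did not overlap upward and 0 downward, against 18.6% and 26.4% of tested genes.

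The remaining fatty acid genes did not pass the test. On the log2 scale (± SE) Acly differed by -0.01 ± 0.05, Fads1 by 0.01 ± 0.04, Lpcat3 by 0.00 ± 0.06, Elovl1 by 0.06 ± 0.07 and Acss2 by 0.08 ± 0.22. The summed level of the 12 genes was 166, 167 and 172 RPKM in MKP5-/- 24 h, 38.6% of the WT 0 h mean. The ratio of Fads1 to Fads2 was 2.92, 3.54 and 3.26, below all 3 WT 24 h libraries. The ratio of Scd2 to Scd1 was 16.5, 20.7 and 23.2, which overlapped the WT 24 h values. The count of 5 fell when single WT 24 h libraries were left out: without replicate 2 it was 2 (Scd2 and Fads2), and without replicate 3 it was 3. In a fit of the 2 genotypes alone it was also 2. Calls over all tested genes fell in these fits as well, from 4235 to 2845, 2918 and 3369.

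**Figure D4:**
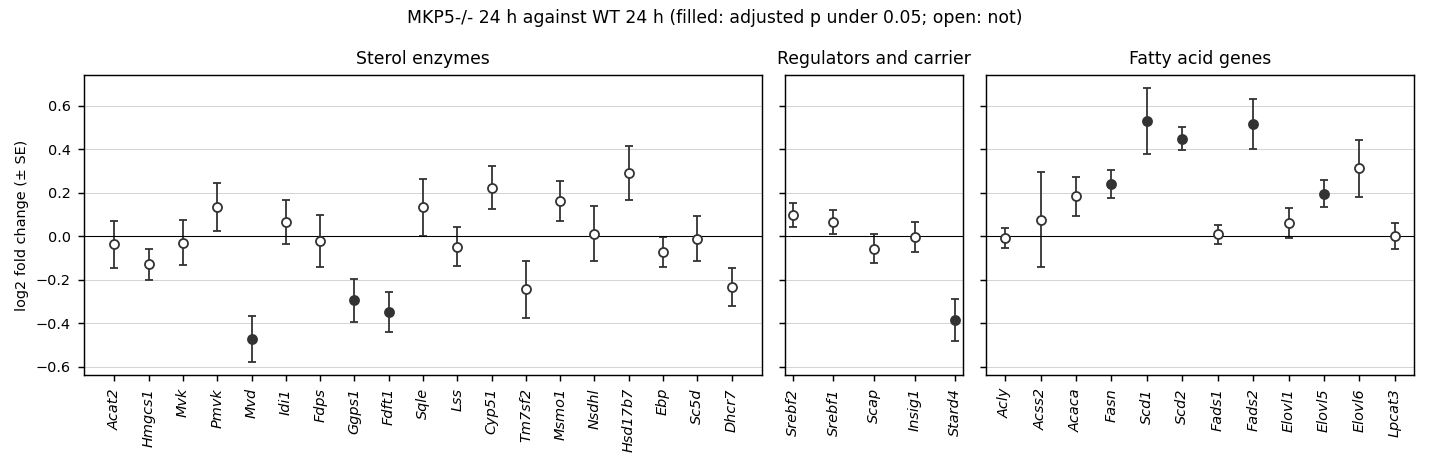
Log2 fold change of each gene in MKP5-/- 24 h against WT 24 h (y axis, log2 scale), with bars for ± 1 SE. Filled points passed adjusted p below 0.05: Mvd, Ggps1, Fdft1 and Stard4 lie below 0, and Fasn, Scd1, Scd2, Fads2 and Elovl5 above it.

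Among the sterol enzymes, Mvd, Fdft1 and Ggps1 were lower in MKP5-/- 24 h. Mvd read 3.94, 4.05 and 4.87 RPKM in MKP5-/- 24 h and 5.36, 5.89 and 6.57 in WT 24 h. Fdft1 read 3.02, 2.66 and 2.92 RPKM, against 3.81, 3.49 and 3.63. Ggps1 read 3.54, 3.86 and 4.07 RPKM, against 4.37, 4.38 and 5.36. The genotypes did not overlap in these 3 genes, with the widest relative gap in Fdft1. The log2 fold change was -0.47 ± 0.10 for Mvd (adjusted p = 0.00719), -0.35 ± 0.09 for Fdft1 (adjusted p = 0.0173) and -0.29 ± 0.10 for Ggps1 (adjusted p = 0.0486). The Ggps1 call was lost in 12 of 17 alternatives and the Fdft1 call in 3, upper-quartile factors among them for both. In the GENCODE M21 annotation, 18.3% of the Fdft1 exon bases lie across from Ctsb exons on the other strand, and reads of the pair cannot be told apart unless strand was used, which is not given in the sources used here.

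Dhcr7 read 3.11, 3.46 and 3.04 RPKM in MKP5-/- 24 h and 3.49, 3.89 and 3.93 in WT 24 h. Its groups did not overlap, but its log2 fold change of -0.23 ± 0.09 had adjusted p = 0.0694. Cyp51 read 5.57, 5.76 and 5.49 RPKM, against 5.35, 4.06 and 5.09. It was the one sterol enzyme whose MKP5-/- 24 h libraries all lay higher, at 0.22 ± 0.10 with adjusted p = 0.115. Over the arm of 19, 5 genes did not overlap downward and 1 upward, against 26.4% and 18.6% of tested genes. The downward count lies near its share.

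The other sterol enzymes lay on both sides of 0. Hsd17b7 stood at 0.29 ± 0.12 (adjusted p = 0.098), Msmo1 at 0.16 ± 0.09, Pmvk at 0.14 ± 0.11, Sqle at 0.13 ± 0.13 and Idi1 at 0.07 ± 0.10. Nsdhl at 0.01 ± 0.13, Sc5d at -0.01 ± 0.10, Fdps at -0.02 ± 0.12, Mvk at -0.03 ± 0.10, Acat2 at -0.04 ± 0.11 and Lss at -0.05 ± 0.09 lay within their SE of 0. Ebp was at -0.07 ± 0.07, Hmgcs1 at -0.13 ± 0.07 and Tm7sf2 at -0.24 ± 0.13. The summed level of the 19 was 84.4, 87.3 and 87.2 RPKM in MKP5-/- 24 h, 30.6% of the WT 0 h mean. All 3 lay below the lowest WT 24 h sum, but narrowly, at 87.3 against 87.7. The sums were not recomputed with other scaling factors. Relative log expression and upper-quartile factors moved the genotype median of all tested genes from -0.05 to -0.01 and 0.03.

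Stard4 was the 1 of 5 regulators and carriers called between genotypes, beside 28.8% of tested genes called. It read 5.30, 4.78 and 5.28 RPKM in MKP5-/- 24 h, below its 6.01 to 7.37 in WT 24 h. Its log2 fold change was -0.39 ± 0.10 with adjusted p = 0.0133, and it missed the threshold with upper-quartile factors, at adjusted p = 0.0541. Srebf2 read 22.8, 22.6 and 22.5 RPKM, just above its 19.8 to 22.3 in WT 24 h. Srebf1 read 13.5, 15.2 and 14.4 RPKM, overlapping its 13.2 to 14.1 in WT 24 h. Neither passed the test, at 0.10 ± 0.06 (adjusted p = 0.192) and 0.07 ± 0.06 (adjusted p = 0.401), although with upper-quartile factors both were called higher. Scap at 6.79, 6.76 and 6.61 RPKM and Insig1 at 17.2, 20.4 and 18.3 RPKM overlapped their WT 24 h values, with log2 fold changes of -0.06 ± 0.07 and -0.01 ± 0.07.

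**Figure D5:**
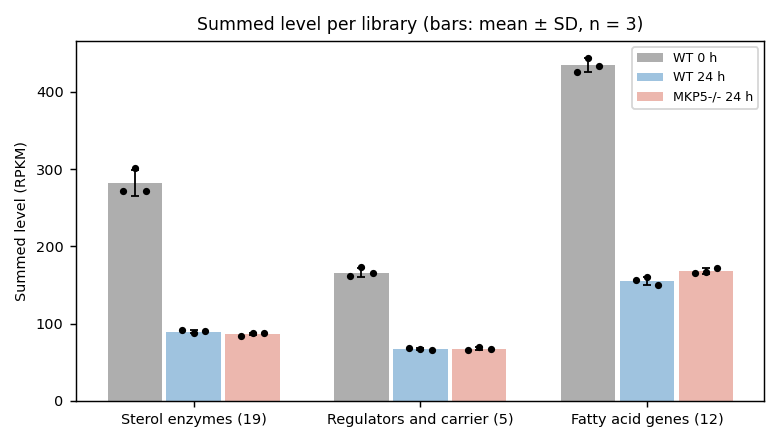
Summed level of the 19 sterol enzymes, the 5 regulators and carriers and the 12 fatty acid genes in each library, in RPKM. Bars are means ± SD of 3 libraries and points are libraries; WT 0 h bars are the tallest in each set, and the MKP5-/- 24 h bar lies above the WT 24 h bar for fatty acid genes, at 168 against 155 RPKM.

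Markers of other cells differed between the genotypes too, and their part in these differences was not tested. Their counts stand beside 11.8% of tested genes higher and 16.9% lower. Of the 9 stromal fibroblast markers tested, 7 were lower in MKP5-/- 24 h and 1, Thy1, was higher. The 8 osteoclast markers summed to 14 to 16 RPKM in WT 0 h, 23.3 to 28.5 in WT 24 h and 72.1 to 79 in MKP5-/- 24 h. Of the 6 tested between genotypes, 4 were higher (Acp5, Dcstamp, Mmp9 and Ocstamp) and 1, Nfatc1, was lower. Calcr and Oscar, 2 of the osteoclast markers, were at 0 in every WT 24 h library. Of the 12 cell-cycle genes, 11 were called between genotypes: the 5 replication genes were higher, at 0.62 to 0.99, and 6 of the 7 mitotic genes were lower, at -1.27 to -0.54. Of the 10 neutrophil markers tested, 1 was lower, and Camp, Elane, Mpo and Retnlg were at 0 in every MKP5-/- 24 h library.

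Of the other pathway lists, 4 of 15 sterol and SREBP machinery genes, 4 of 13 isoprenoid branch genes and 3 of 22 tested fatty acid genes were called between genotypes, beside 28.8% of all tested genes, which the first 2 lists lie near. Among other sterol and SREBP machinery genes, 2 of 15 were higher, Pgrmc1 (a heme-binding partner of sterol enzymes) at 0.53 ± 0.06 and Marchf6 at 0.18 ± 0.05, and 2 were lower, Rnf139 at -0.35 ± 0.10 and Mbtps1 at -0.28 ± 0.08. Pgrmc1 read 54.4, 60.6 and 57.5 RPKM in MKP5-/- 24 h against 42.0, 39.6 and 38.1 in WT 24 h, with no overlap and adjusted p = 0.000108. Among isoprenoid branch genes, Coq2 was higher at 0.42 ± 0.08, and Zmpste24, Dhdds and Fnta were lower at -0.23, -0.18 and -0.18. Among 22 tested genes of fatty acid synthesis and activation, Hsd17b12 was higher at 0.40 ± 0.08, and Hacd4 and Me1 (malic enzyme, a source of NADPH) were lower at -0.70 ± 0.08 and -0.67 ± 0.11. Hacd4 read 22.8, 26.1 and 27.5 RPKM in MKP5-/- 24 h against 37.7, 41.0 and 45.4 in WT 24 h, with adjusted p = 0.000194. Both genotypes remained above its WT 0 h range of 17.1 to 18.5.

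Set against WT 0 h, MKP5-/- 24 h differed in all 36 genes, against 56.4% of tested genes called. This comparison joins genotype with ox-LDL and time and shares its samples with both others. All 19 sterol enzymes and all 12 fatty acid genes were lower, with medians of -1.66 and -1.30, against 31.4% of tested genes lower and a median of -0.02 over all of them. Of the 5 regulators and carriers, 4 were lower and Scap was higher, as were 25% of tested genes, at 0.27 ± 0.07 with adjusted p = 0.00504. Scd1 stood at -4.93 ± 0.15, Scd2 at -3.04 ± 0.05, Fdps at -2.86 ± 0.12, Sqle at -2.82 ± 0.13, Lss at -2.14 ± 0.09 and Insig1 at -2.05 ± 0.07. The smallest falls were those of Fads1 (-0.15 ± 0.04, adjusted p = 0.0133) and Ebp (-0.22 ± 0.07, adjusted p = 0.017), and both were lost with upper-quartile factors, which moved the median of all tested genes from -0.02 to 0.11.

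Some levels carry reads that may belong to a neighbour. In the GENCODE M21 annotation (GRCm38), 15 of the 36 genes share exon bases with another gene, and 6 share over 10% of them. Besides Fdft1, these are Fdps (26.7%, with Gm43738 on the same strand), Scap (13.2%, with 5830462I19Rik on the other strand), Hmgcs1 (12.1%, with Gm48342 on the other strand), Tm7sf2 (12.1%, with Vps51 on the same strand) and Lpcat3 (10.2%, with Emg1 on the other strand).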

How the data were processed

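Bulk RNA-seq was deposited as 1 table per library for 9 libraries in 3 groups of 3. The values are log2 normalized counts with a trimmed-mean-of-M-values (TMM) factor per library, per the file headers. Reads were aligned with STAR to GRCm39, per the submitters' processing notes; what counted the reads, with which annotation and strand setting, is not given in the sources used here. From the values themselves, each was inferred to be the log2 of an RPKM on the TMM-scaled library, with 0.5 reads added to the gene. With GENCODE M21 exon lengths, 93.7% of 20732 testable expressed genes gave whole reads within 0.004 reads plus a 7e-05 share of the reads. Of the 36 members, 15 did so and Fdft1 did at a fitted length, while 20 had too many reads for the check, so their reads were computed from the annotated length unchecked. Levels are 2 to the power of the deposited value, and understate changes at low reads through the 0.5 reads added.

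Tables were joined by symbol. Genes with at least 10 reads at median depth in 3 libraries and 15 in all were kept, leaving 14730. A model with 1 mean per group was fitted to all 9 libraries with limma 3.58.1 in R 4.3.3 (empirical Bayes with trend and robust options, statmod 1.5.0). Tests were two-sided with Benjamini-Hochberg adjustment over the 14730 genes, and "called", "rose" and "fell" mean adjusted p below 0.05. SEs are those of the fit, and SDs those of 3 libraries. The fit was tested on simulated data. The members and lists were chosen with earlier results of these data known. All 36 members are named. For WT 24 h against WT 0 h and for the genotypes at 24 h, values per library are given by role. They cover the 4 genes with the smallest p and any that moved against its role. MKP5-/- 24 h against WT 0 h is given by counts, medians and log2 fold changes. From each other list, by comparison, up to 4 genes with the smallest p and those behind counts of 5 or fewer are named. Ebp, Fads1, Elovl5, Acaca and Cyp51 were given per library after their values were seen. Motifs and exon overlaps were searched with Python 3.11.15. Alternatives changed the groups fitted, variance options, filter, scaling, added reads, replicate block and each library in turn. Of the pathway lists, 1 gene is not reported here by name.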

Additional observations from a re-analysis of the deposited data

How the results depend on the processing

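Each fold change and each count of called genes was recomputed under 17 alternatives per comparison. For WT 24 h against WT 0 h, 610 of 612 gene values kept their direction and side of the threshold, and 2 crossed into a call (Ebp); for MKP5-/- 24 h against WT 0 h, 608 of 612 did and 4 lost a call (Ebp, Fads1). For MKP5-/- 24 h against WT 24 h, 531 of 612 did, 30 lost a call, 8 gained 1 and 43 changed sign, all in genes not called. Scd2, Fads2 and Mvd were called in all 17. The count of 5 fatty acid genes was 2 with only the 2 genotypes fitted, and ranged from 2 to 6 when 1 library was left out (2 without WT 24 h replicate 2, 3 without replicate 3). The count of 1 regulator or carrier became 2 with upper-quartile factors, with Srebf1 and Srebf2 in place of Stard4. Fewer samples enter the first of these fits; for the scaling the cause was not tested. Calls over all genes in that comparison ran from 2845 to 4034 with 1 library left out, against 4235. Scaling changed the share of calls that were higher from 41.1% to 51.3% (relative log expression) and 60.9% (upper quartile).

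Signs turned in that comparison as follows, on the log2 scale. Relative log expression factors gave Fdps 0.027, Insig1 0.042, Sc5d 0.037, Mvk 0.019, Acat2 0.010 and Acly 0.039. Upper-quartile factors gave Fdps 0.067, Lss 0.040, Insig1 0.082, Sc5d 0.077, Mvk 0.058, Acat2 0.050, Ebp 0.017, Scap 0.031 and Acly 0.079. With 1 library left out the ranges were -0.008 to 0.247 for Sqle, -0.000 to 0.148 for Idi1, -0.152 to 0.077 for Fdps, -0.074 to 0.052 for Insig1, -0.091 to 0.093 for Sc5d, -0.102 to 0.137 for Nsdhl, -0.129 to 0.053 for Mvk, -0.157 to 0.067 for Acat2, -0.031 to 0.016 for Acly, -0.124 to 0.285 for Acss2, -0.010 to 0.137 for Elovl1, -0.014 to 0.024 for Fads1 and -0.032 to 0.050 for Lpcat3.

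Same-numbered libraries correlated in their deviations at -0.0223 to 0.194, and differently numbered ones at -0.168 to 0.123. The highest values, 0.194 and 0.145, were those of MKP5-/- 24 h replicate 1 with replicate 1 of WT 0 h and of WT 24 h. The labels do not say whether the numbers mark pairs, and the main fit did not take them as pairs. With a replicate block the calls over all genes were 8221 for WT 24 h against WT 0 h (8184 without), 4394 for the genotypes (4235) and 8450 for MKP5-/- 24 h against WT 0 h (8305), and the counts of called members did not move by over 1.5 times. The MKP5-/- 24 h libraries were shallower, and what this did to calls in low genes was not tested. Among such genes, Scd1 had 71, 60 and 60 reads in MKP5-/- 24 h and 70, 60 and 58 in WT 24 h. Acss2 had 165, 152 and 146 against 149, 207 and 291, and Hsd17b7 had 91, 83 and 111 against 111, 109 and 108.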

Other observations

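Genes that handle cholesterol after its synthesis or uptake did not move as a block in WT macrophages over the 24 h with ox-LDL. Of 13 tested genes of cholesterol storage, transport and oxysterol formation, 7 fell and 3 rose, beside 28.1% of all tested genes lower and 27.4% higher, with a median log2 fold change of -0.24. Cyp27a1, the mitochondrial sterol hydroxylase that makes an oxysterol, read 5.39, 5.27 and 5.86 RPKM in WT 0 h and 26.5, 27.6 and 36.1 in WT 24 h, and Ch25h, another oxysterol-forming hydroxylase, read 4.17, 4.58 and 3.45 and then 0.3, 0.745 and 0.431. The pair thus moved in opposite directions without overlap, at 2.44 ± 0.11 (adjusted p = 2.78e-08) and -3.14 ± 0.36 (adjusted p = 1.98e-05). Soat1, the enzyme that esterifies cholesterol for storage, rose by 0.46 ± 0.08, and Stard3, which tethers endosomes for sterol transfer, fell by 0.71 ± 0.05. In MKP5-/- 24 h against WT 24 h, Lipa, the lysosomal lipase that frees cholesterol from its ester, was higher at 0.28 ± 0.04, and the sterol transporters Npc1, Osbp and Gramd1a were lower at -0.36, -0.34 and -0.21.

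Of the 7 genes listed for LXR and cholesterol efflux, 5 rose and none fell from WT 0 h to WT 24 h, beside 27.4% and 28.1% of all tested genes, with Apoe at 2.42 ± 0.14, the exporter Abca1 at 2.41 ± 0.12 and the receptor partner Rxra at 1.76 ± 0.12. Between genotypes at 24 h, 2 were higher and 4 lower, beside 11.8% and 16.9% of all tested genes. Nr1h3, which encodes LXR alpha, read 2.82, 3.08 and 2.68 RPKM in WT 0 h, 3.53, 2.47 and 2.62 in WT 24 h and 7.41, 7.28 and 7.33 in MKP5-/- 24 h, so that it stood apart in the MKP5-/- libraries, at 1.37 ± 0.13 with adjusted p = 4.02e-05. Abcg1 was also higher, at 0.49 ± 0.06, while Rxra at -0.89 ± 0.12, Apoe at -0.43 ± 0.14, Abca1 at -0.40 ± 0.12 and Mylip at -0.25 ± 0.08 were lower. Apoe, Abca1 and Rxra stayed above their WT 0 h levels in every MKP5-/- 24 h library.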
